A study of Homo sapiens with 40 samples.

Results

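The comparison described here is that of BT474 cells 24 h after epidermal growth factor (EGF) with the same cells 1 h after EGF. Open chromatin was measured by ATAC-seq, which reads out where a transposase can reach and tag the DNA. Its members were the 2 libraries titled S24_EGF and the 2 titled S1_EGF, 4 of the 40 libraries of the series, and the 4 matching vehicle libraries (S24_Con and S1_Con) were set beside them. BT474 is an established HER2-overexpressing breast carcinoma line that is sensitive to the antibody trastuzumab, and the remaining libraries came from BT474 or from BT474R, a trastuzumab-resistant clone of it, at baseline (0 h) or 1, 12 and 24 h after EGF, heregulin (HRG, which binds HER3 and HER4) or vehicle (water). All groups, vehicle included, had been serum starved and stayed in low-serum medium, so the 24 h groups had spent longer in that medium than the 1 h groups. Each group had 2 libraries, which the published methods describe as duplicate treatments, so p-values measure the spread between duplicates. Peaks of the 4 EGF lists (chromosomes 1 to 22 and X) were merged where they overlapped by 1 bp or more, which gave 60500 regions. A region was called opened if both 24 h lists and neither 1 h list had a peak there, and closed if the reverse held.

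EGF binds the receptor EGFR, which pairs with other ERBB receptors, HER2 among them, and activates the MAP kinase pathway. Within the first hour this pathway is known to switch on immediate early genes such as FOS, JUN and EGR1, many of them through serum response factor (SRF) bound to CArG boxes, and their products include the AP-1 factors that bind enhancers. TEAD factors, which act with YAP and share many enhancers with AP-1, bind a short GGAATG core. Later, dual-specificity phosphatases and Sprouty proteins damp the same pathway.

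The sequences that carry these motifs in the regions that differed between 1 h and 24 h are shown first. Each is the 151 bases centred on the summit of the peak in the GRCh38 reference, plus strand, and capitals mark every match to AP-1 (TGANTCA), TEAD (GGAATG) or the SRF CArG box on either strand. Of all 60500 regions, 13.4% held an AP-1 match, 10.9% a TEAD match and 0.688% a CArG box in such a window. The examples were picked by motif and by rank of peak area after the values were seen, and a match is a description, not a bound site. The first set holds the 3 opened regions of highest rank that had an AP-1 match and no peak in any of the 4 vehicle libraries. That near SNX10 lies in an intron of LINC02981, 85.6 kb from the SNX10 start, that of SLC1A2 in an intron of that gene, and that assigned to CWC15 in an intron of ENSG00000256469, 93.2 kb away. The number of AP-1 matches was 1, 2 and 3 in the order shown.
opened, SNX10, chr7:26449897-26450047: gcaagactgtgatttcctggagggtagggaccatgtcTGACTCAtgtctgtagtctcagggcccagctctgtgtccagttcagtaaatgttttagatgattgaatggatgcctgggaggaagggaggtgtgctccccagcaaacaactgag
opened, SLC1A2, chr11:35337408-35337558: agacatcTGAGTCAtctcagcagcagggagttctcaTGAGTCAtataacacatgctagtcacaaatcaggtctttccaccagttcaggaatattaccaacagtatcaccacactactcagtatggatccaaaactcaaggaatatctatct
opened, CWC15, chr11:94880290-94880440: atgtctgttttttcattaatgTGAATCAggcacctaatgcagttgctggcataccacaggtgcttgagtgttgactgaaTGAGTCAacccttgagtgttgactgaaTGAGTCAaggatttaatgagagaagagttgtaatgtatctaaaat

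The second set holds closed regions of high rank with a motif, though for the CArG box not the one of highest rank. That near KCNK1 is intergenic with an AP-1 match, that in an intron of NID1, a basement membrane gene, has AP-1 and TEAD side by side, that near TSEN15 is intergenic with a TEAD match, and that in an intron of AOPEP has a CArG box.
closed, KCNK1, chr1:233735982-233736132: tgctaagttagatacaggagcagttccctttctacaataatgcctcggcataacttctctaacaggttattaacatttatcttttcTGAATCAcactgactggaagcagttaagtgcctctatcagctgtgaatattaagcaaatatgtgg
closed, NID1, chr1:236010038-236010188: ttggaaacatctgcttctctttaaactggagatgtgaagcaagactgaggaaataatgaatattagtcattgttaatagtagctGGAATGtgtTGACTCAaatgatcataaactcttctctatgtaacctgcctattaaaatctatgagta
closed, TSEN15, chr1:184156613-184156763: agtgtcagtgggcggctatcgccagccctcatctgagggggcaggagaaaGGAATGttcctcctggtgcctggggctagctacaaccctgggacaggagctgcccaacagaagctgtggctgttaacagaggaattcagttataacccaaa
closed, AOPEP, chr9:94996007-94996157: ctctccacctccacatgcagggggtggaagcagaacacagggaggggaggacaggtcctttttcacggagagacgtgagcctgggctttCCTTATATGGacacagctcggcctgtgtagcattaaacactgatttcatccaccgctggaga

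The third set shows 2 regions that kept a peak but lost most of its area by 24 h. The first lies in an intron of ARHGAP6, a GTPase-activating protein gene, and has a CArG box. The second is intergenic, 196.777 kb from the start of VGLL3, a gene of a cofactor of TEAD. It has a CArG box that overlaps a TEAD match, and a second TEAD match towards the other end of the window.
area fell, ARHGAP6 intron, chrX:11352308-11352458: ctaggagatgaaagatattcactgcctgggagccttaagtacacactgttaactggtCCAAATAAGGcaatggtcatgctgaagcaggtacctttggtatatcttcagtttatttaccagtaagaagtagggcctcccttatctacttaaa
area fell, VGLL3, chr3:86793850-86794000: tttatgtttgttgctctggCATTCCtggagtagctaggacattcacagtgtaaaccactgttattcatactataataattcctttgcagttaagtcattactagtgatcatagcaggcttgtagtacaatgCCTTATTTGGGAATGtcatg

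The EGF 1 h lists held 52629 and 48883 peaks and the EGF 24 h lists 55225 and 56363, against 48788 and 49195 for vehicle at 1 h and 52331 and 50579 at 24 h. The mean rose by 5038 peaks with EGF and by 2464 with vehicle, and the difference between these changes was not called (exact permutation test of ligand labels within time, two-sided, p = 0.444, adjusted over 5 tests 0.556; the smallest p possible was 0.0556). Peak lists carry no read totals, so depth was unknown, and only peaks with an area above 200, the floor of every list, were listed. No peak therefore means below that floor, and a smaller peak can stand for fewer cells with the site open or for less opening in each, which cannot be told apart here. Of the bases covered by either list of a pair, the 2 EGF 1 h lists shared 85.0%, as did the 2 EGF 24 h lists. Lists of different times shared 78.3% to 80.0% of such bases. All 8 markers of an epithelial breast line (EPCAM, KRT8, KRT18, KRT19, CDH1, ERBB2, GATA3 and ESR1) had a promoter peak in all 8 EGF and vehicle libraries. Of 8 markers of other cell types, PTPRC, CD3E, PECAM1, COL3A1 and DES had none, CDH5 and COL1A1 had one in all 8 and PDGFRB in 5.

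Between 1 h and 24 h of EGF, 3598 regions opened (5.95% of 60500) and 1175 closed (1.94%), while 44171 had a peak in all 4 libraries. With vehicle, 1707 regions opened (3.07% of 55581) and 617 closed (1.11%). More regions opened than closed in both arms, but the 24 h lists were also longer. When each of the 8 lists was cut to its 48788 strongest peaks, 1877 regions opened and 2200 closed with EGF, and 1039 and 1000 with vehicle, so the excess of opened over closed regions turned round with EGF and nearly vanished with vehicle. The EGF counts stayed larger than the vehicle counts in each direction under both settings. Replicates disagreed at both times in 1293 regions, which had a peak in exactly 1 of 2 EGF libraries at each time. They disagreed at 24 h only in 3886 regions with no 1 h peak and 1397 with both 1 h peaks. They disagreed at 1 h only in 1818 regions with no 24 h peak and 3162 with both 24 h peaks.

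**Figure D1:**
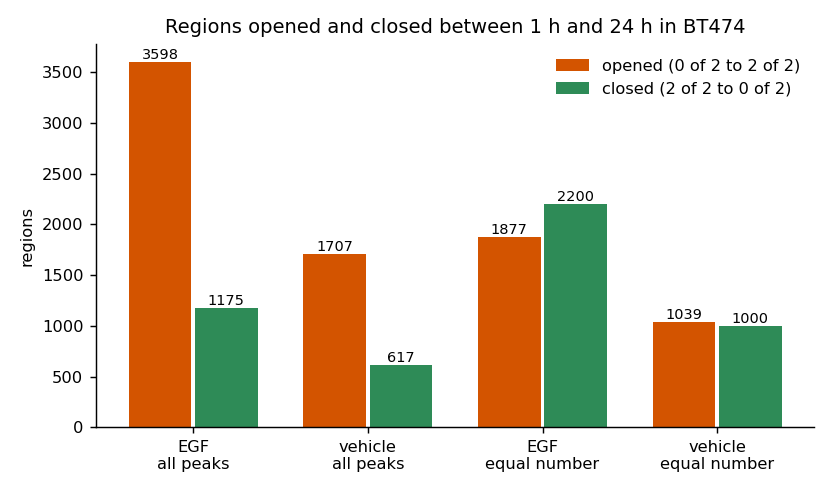
Number of regions (vertical axis) that opened (orange) or closed (green) between 1 h and 24 h in BT474 with EGF and with vehicle, from all listed peaks (left 2 pairs) and from the 48788 strongest peaks of each list (right 2 pairs). With EGF, opened exceeded closed among all peaks (3598 against 1175) but not with equal numbers (1877 against 2200).

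Opened and closed regions were weak sites. The median area of a peak was 264 in opened and 266 in closed regions, near the floor of 200, against 726 in regions open in all 4 libraries. Opened regions had a median width of 301 bp and closed regions of 368 bp, against 487 bp over all regions. Only 12.8% of opened and 19.1% of closed regions lay within 1 kb of a transcription start (promoters), against 32.7% of all 60500 regions. Of those farther away, called distal here, 59.4% of opened and 60.5% of closed regions lay in introns. Mean GC content was 50.4% in opened and 47.8% in closed regions, against 54.5% over all. In distal regions alone it was 49.8% and 44.8%, against 50.1%, so that opened regions lay close to all distal regions. Regions open in 1 of 2 libraries at each time had a promoter share of 20.9% and a median width of 275 bp. The closed promoter share of 19.1% was thus close to that of such regions, and the opened share lay below it.

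Vehicle showed part of the same change. Of the 3598 opened regions, 434 (12.1%) also overlapped a region that opened with vehicle, which was 25.5% of the vehicle opened regions. For closed regions the overlap was 58, or 4.94% of the EGF and 9.40% of the vehicle closed regions. The opened regions were a mixture in vehicle cells. No vehicle library of either time had a peak in 1277 of them (35.5%), whereas 516 (14.3%) had a peak in both vehicle libraries at 1 h, so these were sites with a peak in vehicle but not in EGF cells at 1 h. Of the 1175 closed regions, 508 (43.2%) had no peak in any of the 4 vehicle libraries and 162 had one in all 4.

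At baseline, the 2 libraries had peaks in 37.6% and 24.8% of opened regions, and vehicle at 1 h in 25.7% and 24.7%. HRG at 1 h had fewer, 6.56% and 10.1%. At 24 h, vehicle had 51.1% and 41.4% and HRG 71.1% and 65.2%. EGF at 12 h, which the rule did not use, had 56.4% and 73.4%, against 33.9% and 33.4% for vehicle. In HRG cells the share thus lay below vehicle at 1 h and above vehicle at 24 h. For closed regions the order was the opposite. HRG at 1 h had peaks in 69.3% and 82.3% of them, against 39.0% and 35.3% for vehicle, and at 24 h HRG had 16.9% and 22.6%, against 31.8% and 33.3% for vehicle. EGF at 12 h had 32.8% and 48.3%, so 1 of its 2 libraries was close to vehicle at 12 h (28.9% and 27.9%). Regions open in 1 of 2 EGF libraries at each time were also higher with EGF at 12 h (46.2% and 60.9%) than with vehicle (38.1% and 36.4%).

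The change in the 20 libraries of the 5 other arms was tested. The share of the closed set with a peak was lower at 24 h in 5 of 5 arms, with differences of -4.60 percentage points in BT474 with vehicle, -56.1 with HRG, and -20.7, -13.02 and -16.7 in BT474R with vehicle, EGF and HRG. The mean fell by 22.2 points (exact permutation of time labels within arms, two-sided, p = 0.000257, the smallest possible, adjusted over 5 tests 0.00129). The opened set rose by 21.1 points in BT474 with vehicle, 59.8 with HRG, 12.3 in BT474R with EGF and 0.667 in BT474R with HRG, and fell by 13.6 in BT474R with vehicle. Its mean change of 16.04 points did not pass after adjustment (exact permutation test, p = 0.0491, adjusted 0.123). It passed with equal numbers of top peaks (20.4 points, exact permutation p = 0.000257) and after subtracting the share of regions open in 1 of 2 libraries at each time (17.9 points, exact permutation p = 0.000257). BT474R lists differed widely in length, and with equal numbers of top peaks in every list the closed set fell by 20.4 points (exact permutation p = 0.000257).

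**Figure D2:**
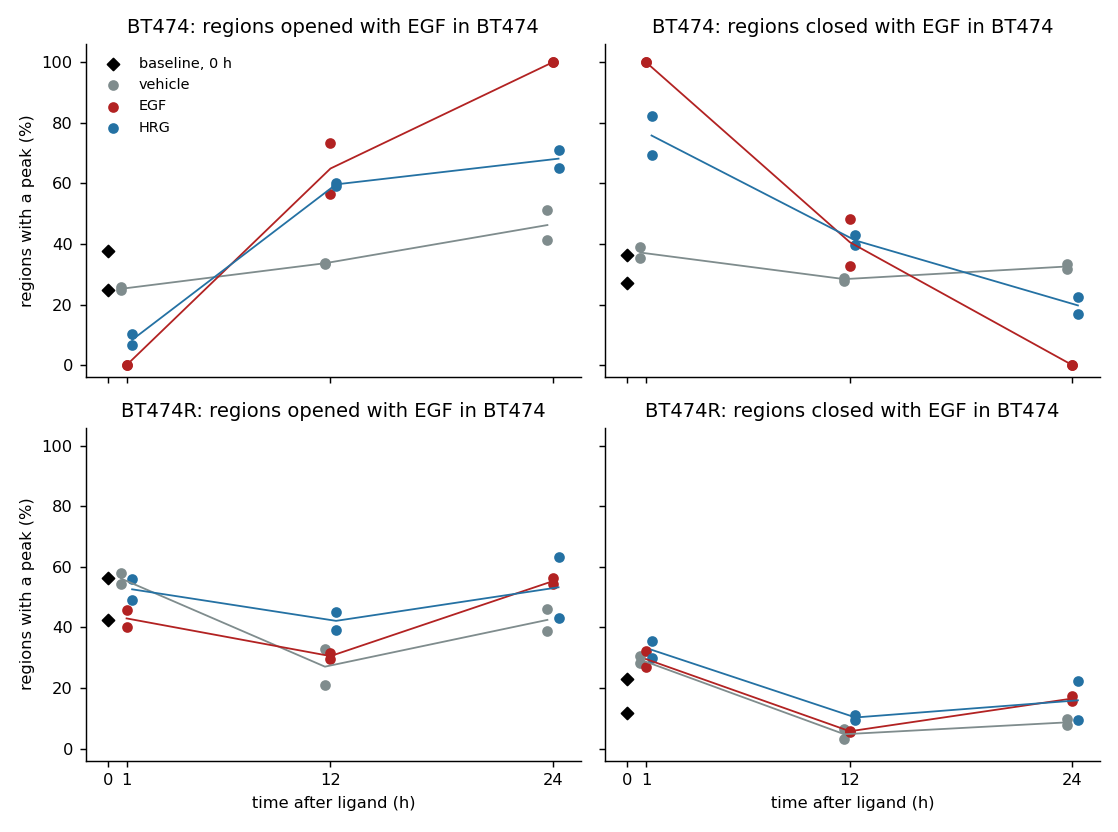
Share of the opened (left) and closed (right) regions with a peak (vertical axis, %) in each library against time after ligand (horizontal axis, h), in BT474 (top) and BT474R (bottom); points are libraries, lines join group means, and the EGF 1 h and 24 h values in BT474 are 0 or 100 by the rule. HRG follows EGF in BT474, from 6.56% and 10.1% of opened regions at 1 h to 71.1% and 65.2% at 24 h.

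Of the opened regions, 1605 (44.6%) also opened with HRG by the same 2-of-2 against 0-of-2 rule and 11 closed. Of the 1293 regions open in 1 of 2 EGF libraries at each time, 6.73% opened and 5.80% closed with HRG, and of those open in all 4, 1.04% opened and 0.392% closed. Of the closed regions, 502 (42.7%) closed with HRG and 10 opened. In BT474R with EGF, 409 of the opened regions (11.4%) opened and 128 of the closed regions (10.9%) closed, against 3.63% and 4.02% of regions open in 1 of 2 at each time and 1.86% and 2.43% of those open in all 4. Of the closed regions, 616 (52.4%) had no peak in any of the 20 BT474R libraries, against 927 (25.8%) of the opened ones. That share was 44.01% for regions open in 1 of 2 at each time and 7.28% for those open in all 4. Only 90 opened regions had no peak in any other BT474 library.

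Several of the strongest opened regions without vehicle peaks at 1 h and 24 h lay far from the starts of protein-coding genes. A region in an intron of LINC02015, 436 kb from KCNMB2 (chr3:177836437-177837339), had areas of 740 and 601 in the 2 EGF 24 h libraries, 539 and 789 with HRG at 24 h, and no peak at 1 h with any treatment. One in an intron of SH3RF3 (chr2:109175119-109175618) had 691 and 573 at 24 h and 211 and 349 in the EGF 12 h libraries. Both regions had a peak in both EGF libraries already at 12 h.

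The SNX10 region with the AP-1 match had areas of 595 and 540 at 24 h, 329 and 462 at 12 h, and none in the EGF 1 h, vehicle or baseline libraries, while HRG at 1 h had 211 and 237. The SLC1A2 region, with 2 matches in a glutamate transporter gene, had 450 and 652 at 24 h and 238 and 328 at 12 h. Others of this rank lay near RGS3, LIMCH1 and DYSF, with areas at 24 h between 457 and 669. HRG at 24 h had peaks in both libraries at each of these sites, and BT474R had peaks in 5 (SH3RF3) to 20 (KCNMB2, LIMCH1 and DYSF) of its 20 libraries.

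By number of opened regions assigned to the nearest protein-coding start within 100 kb, genes with high numbers included ZMYND8 (6 of 39), SNX10 (5 of 12), GRHL2 (5 of 20) and AUTS2 (5 of 42). Among closed regions ARID5B led with 4 of 17, and NEDD4L, NTN4, ARHGAP42 and FBXL20 had 3 each. Genes with many regions had more chances to be counted.

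Among closed regions that had peaks in both vehicle 24 h libraries, the strongest lay 3.7 kb from a start of NR4A1, an immediate early nuclear receptor gene (chr12:52059747-52061341). Its areas were 927 and 1192 with EGF at 1 h, with no peak at 12 h or 24 h. HRG at 1 h had 1572 and 1837, whereas vehicle had no peak at 1 h and 936 and 871 at 24 h. The site was thus present early after ligand and late with vehicle.

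The AOPEP region with the CArG box had areas of 815 and 667 with EGF at 1 h and 1028 and 1013 with HRG at 1 h, against 370 and 308 with vehicle at 1 h and 380 and 416 at 24 h. Neither EGF nor HRG had a peak there at 24 h. A region 792 kb from MAN1A1 (chr6:120141650-120142558) had 961 and 865 at 1 h of EGF and 1317 and 1119 with vehicle at 24 h, so it fell below the floor in the ligand arms only. The same held near KCNK1 (674 and 572 at EGF 1 h, 583 and 491 at vehicle 24 h), where 1 HRG 24 h library still had a small peak. In NID1 the EGF 1 h areas were 602 and 587 and the vehicle 24 h areas 391 and 326. Near TFAP2A, a transcription factor gene of breast epithelium, they were 550 and 636, against 265 and 264. Of the closed regions named here, those near MAN1A1, AOPEP, KCNK1 and TFAP2A had no peak in any BT474R library.

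Motifs were compared in distal regions, within 100 bp of the summit. AP-1 was found in 25.7% of 951 closed and 15.9% of 3139 opened regions, against 19.6% of all 40687 distal regions. Among regions with no vehicle peak it was more frequent in both sets, at 37.0% of 454 closed and 32.2% of 1152 opened regions, whereas only 4.45% of the 449 opened regions with peaks in both vehicle 1 h libraries held it. No AP-1 share is given here for regions without a vehicle peak that neither opened nor closed, so these shares may not be particular to opening or closing. TEAD was found in 28.8% of closed and 10.8% of opened regions, against 16.1% of all. The SRF CArG box was found in 3.79% of closed regions (36 of 951) and 0.733% of opened ones (23 of 3139), against 1.00% of all. EGR (GTGGGCG) stood at 3.89% of closed and 0.860% of opened regions, against 1.77% of all. Regions open in 1 of 2 libraries at each time included 1023 distal ones. Among these, AP-1 stood at 16.1%, TEAD at 17.2%, CArG at 0.978% and EGR at 1.86%. The AP-1 share of all opened distal regions was thus close to theirs.

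These shares were computed for regions chosen by the rule and carry no test. The CTCF motif was less frequent in both sets (2.04% of opened and 0.946% of closed, against 4.01%), and TFAP2 (GCCNNNGGC) stood at 13.5% and 9.57%, against 14.3%. Forkhead (TGTTTAC) was at 10.6% and 13.04%, against 10.3%. With the 48788 strongest peaks of each list, AP-1 stood at 24.5% of closed and 15% of opened regions, TEAD at 25.8% and 10.7%, and CArG at 2.56% and 0.783%, so the order of the sets was kept. Over all peaks of a library the AP-1 share was 15.4% and 15.8% at EGF 1 h, 15.05% and 15.06% at EGF 24 h, 13.4% and 13.1% at vehicle 1 h and 12.5% and 12.2% at vehicle 24 h. Both EGF groups lay above both vehicle groups, and the difference between the changes with time was not called (0.358 points, exact permutation p = 0.667).

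**Figure D3:**
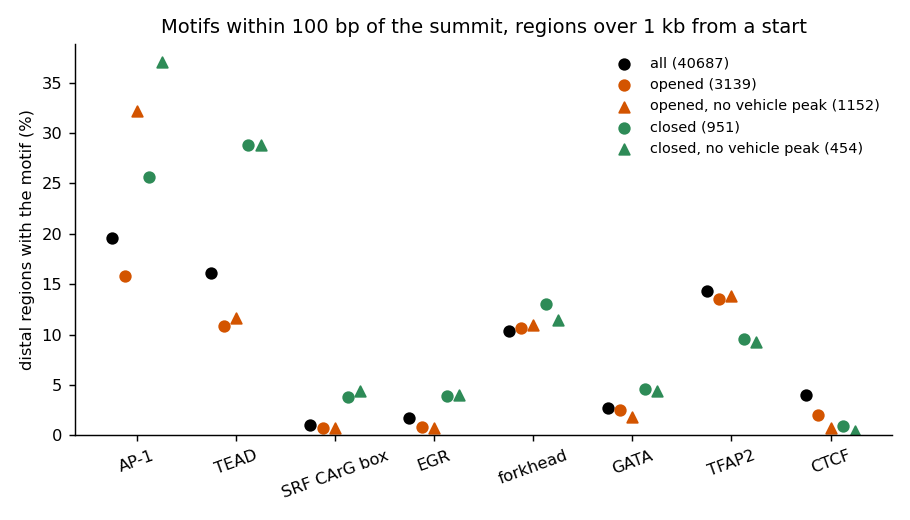
Share of distal regions (vertical axis, %) with each of 8 motifs within 100 bp of the summit, for all regions (black), opened (orange) and closed (green) regions; triangles are the subsets without a peak in any of the 4 vehicle libraries, and counts of regions are in the legend. TEAD stands at 28.8% of closed against 10.8% of opened regions.

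Gene lists were read against the share of all regions assigned to a gene, of which 5.43% opened and 1.81% closed. The immediate early list had 5 opened and 5 closed of 121 regions. A closed region near EGR3 (chr8:22685467-22685995), a zinc finger factor gene, had areas of 319 and 396 with EGF at 1 h and 811 and 809 with HRG at 1 h. No baseline, vehicle, 12 h or 24 h library had a peak there. IER3 had 2 opened regions, with 24 h areas of 218 and 226, and of 282 and 377.

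Feedback regulators of MAP kinase signalling had 7 opened (5.56%) and 0 closed of 126 regions. The opened share was close to the 5.43% of all gene-assigned regions. Those of DUSP6, a phosphatase of ERK, lay 4.7 kb from its start (areas of 275 and 382 at EGF 24 h, 220 and 313 at 12 h) and in an intron 1.07 kb from it (213 and 247 at 24 h), with no vehicle peak at any time. DUSP5, a nuclear phosphatase of ERK, had 2 opened regions 66.04 and 63.9 kb away, in DUSP5-DT, with 24 h areas of 344 and 251, and of 346 and 323. Both DUSP5 regions already had peaks in both baseline libraries (208 and 237, and 211 and 219). The first had a vehicle peak of 241 in 1 library at 1 h. The second had vehicle peaks of 206 in 1 library at 12 h and 254 in 1 library at 24 h. DUSP4, also a phosphatase gene, had 230 and 292 and SPRED2 256 and 215 at 24 h.

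ERBB receptors and adaptors had 5 opened and 0 closed of 57 regions. In ERBB3, the HER3 gene, an intronic region (chr12:56081897-56082287) had areas of 284 and 281 at EGF 24 h and 253 and 276 at 12 h, and no peak in baseline or vehicle libraries. In EGFR itself an intronic region with an AP-1 match (chr7:55129719-55130250) had 247 and 238 at EGF 24 h and no peak in any other BT474 library, although all 20 BT474R libraries had one. A second EGFR region had 204 and 299 at EGF 24 h and 213 and 353 with HRG at 24 h.

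Luminal lineage and hormone receptor genes had 19 opened and 7 closed of 200 regions, and interferon and NF-kappaB response genes 8 and 1 of 74. Opened luminal regions included 5 near GRHL2, a grainyhead factor of epithelia, and 3 near XBP1. At KRT19, a keratin of simple epithelia, 3 regions opened, of which the strongest had areas of 475 and 442 at 24 h. That one also had vehicle 24 h peaks, 354 and 237. A region in an exon of ELF3, another epithelial factor, 1.62 kb from the protein-coding start, had 578 and 280 at EGF 24 h and 207 in 1 vehicle 24 h library. NFKBIA, the inhibitor of NF-kappaB, had a region with 459 and 453 at 24 h, 408 and 390 at EGF 12 h and no vehicle 24 h peak. PGR, the progesterone receptor gene, had a closed region with 243 and 220 at EGF 1 h, whereas vehicle at 24 h had 1228 and 1130. Vehicle at 1 h already had 836 and 703, and EGF at 12 h had 1153 and 1209, so the PGR region showed no steady loss with EGF. The area in a library is that of every whole peak overlapping the region, so a broad peak there counts in full.

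KRT8, another keratin gene of simple epithelia, had 2 closed regions and 1 opened region. A closed region 14.3 kb from its nearest annotated KRT8 start (chr12:52888999-52890967) had areas of 474 and 808 with EGF at 1 h and 785 and 1337 with HRG at 1 h. It had no peak in any other BT474 or BT474R library. A second closed region beside it had 227 and 203 with EGF, and 451 and 374 with HRG. The opened region, 25.5 kb from its own nearest KRT8 start, had 224 and 231 at EGF 24 h and 355 and 201 with HRG at 24 h, and no peak in any other library. TRIB1, a pseudokinase gene, also had 2 closed regions found only 1 h after ligand, with EGF areas of 307 and 285, and of 259 and 336.

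Epithelial plasticity and adhesion genes had 4 opened and 6 closed of 125 regions, delayed EGF response genes 7 and 5 of 109 and cell cycle genes 2 and 5 of 51. In TGFB2, a ligand gene of the TGF-beta family, a closed intronic region with an AP-1 match had 573 and 464 at EGF 1 h and 707 and 830 with HRG at 1 h, and none with vehicle. SMAD3, which acts downstream of such ligands, had a closed region with 381 and 392 (HRG 518 and 534). ITGA2, an integrin gene, had one with 537 and 514 at 1 h that was still present at EGF 12 h (237 and 357). The CDKN1A promoter, of the cell cycle inhibitor p21, had 345 and 314 at EGF 1 h, but vehicle at 1 h had 279 and 297 too and lost it likewise. An opened region in the MMP1 promoter, with an AP-1 match, had 201 and 255 at EGF 24 h.

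Glycolysis and hypoxia response genes had 13 opened and 3 closed of 159 regions. EPAS1, the HIF-2 alpha gene, had 3 opened regions, of which that at chr2:46273912-46274235 had 385 and 320 at EGF 24 h, 432 and 245 with HRG at 24 h and none with vehicle. NDRG1, a hypoxia-induced gene, had 4, and HK2 2, the latter also with vehicle peaks at 24 h. Lipid synthesis genes had 10 and 5 of 161, among them 3 opened in ACACA, the acetyl-CoA carboxylase gene. CXCR4, a chemokine receptor gene, had 3 opened regions, with 372 and 628 at EGF 24 h in the one 43.3 kb from the gene.

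Hormone response genes had 5 and 1 of 99 regions, AP-1 and partner factors 2 and 1 of 63, epithelial markers 5 and 3 of 73, and markers of other cell types 1 and 0 of 28. The last one was a CDH5 region with 256 and 298 at EGF 24 h.

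Peak area gave a graded measure for 40408 regions with a peak in all 8 EGF and vehicle libraries. In limma on quantile-normalised log2 area (Benjamini-Hochberg over all regions, 0.05), 4327 regions rose from EGF 1 h to EGF 24 h (10.7%) and 3770 fell (9.33%), against 52 that rose (0.129%) and 158 that fell (0.391%) with vehicle. The change differed between EGF and vehicle upward in 1112 regions (2.75%) and downward in 718 (1.78%). With 2 libraries a group these calls leaned on each one. Leaving out any 1 of the 4 EGF libraries (EGF 1 h replicate 1 or 2, EGF 24 h replicate 1 or 2) gave 1405 to 2708 rises and 912 to 2417 falls with EGF. Leaving out any 1 of the 8 libraries gave 0 calls with vehicle by limma (5021 to 7565 regions at an unadjusted p under 0.05) and 0 upward and 0 to 2 downward calls for the difference (8305 to 10195 at an unadjusted p under 0.05).

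More promoter regions fell than rose, and more distal regions rose than fell. Of 16252 promoter regions 4.16% rose and 10.7% fell, and of 24156 distal regions 15.1% rose and 8.43% fell. In distal regions that fell, AP-1 stood at 25.4%, TEAD at 26.0% and CArG at 3.04%, against 13.4%, 10.7% and 0.383% of those that rose and 18.2%, 16.1% and 0.936% of all tested. Of the 226 distal regions with a CArG box, 62 fell (27.4%) and 14 rose.

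The largest fall (chr12:52953037-52957669) was 4.5 kb from its nearest annotated KRT8 start. That is a different start from the one nearest the closed KRT8 regions above. Areas were 3091 and 3071 at EGF 1 h and 537 and 525 at EGF 24 h, against 884 and 593 at vehicle 1 h and 1283 and 1140 at vehicle 24 h. The log2 change was -2.65 ± 0.17 (SE, limma adjusted p = 0.0027) with EGF and 0.64 ± 0.17 with vehicle, and HRG at 1 h had 2696 and 3804. The next largest was near NRBP2 (2812 and 2578 to 539 and 615), where vehicle, at 586 and 537 to 522 and 519, had a log2 change of -0.19 that was not called. The ARHGAP6 intron with the CArG box, whose nearest start is AMELX, went from 1592 and 1472 to 401 and 326 (log2 -2.22 ± 0.14, adjusted p = 0.00257). In these regions the EGF groups did not overlap, and at KRT8 and NRBP2 the level at 24 h of EGF lay close to that of vehicle at 1 h or below it.

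Near ACTG1, the cytoplasmic gamma-actin gene and a known SRF target, areas fell from 5189 and 5246 to 1573 and 1371 (log2 -1.83 ± 0.09, limma adjusted p = 0.00166), while vehicle had 3267 and 3411 at 1 h and 4102 and 3985 at 24 h. At the site 196.777 kb from VGLL3 they went from 829 and 688 to 228 and 239, and near NEDD9, a focal adhesion scaffold gene, from 934 and 946 to 345 and 249. MSI2, PSG9 and NPAP1 were also among the 10 largest falls, with log2 changes between -2.22 and -1.98. At MSI2 vehicle was also lower at 24 h (-1.14 on the log2 scale, limma adjusted p = 0.0504).

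Of the 83 tested regions of immediate early genes 25 fell and 9 rose (median log2 change -0.09, against -0.02 over all gene-assigned regions), and of the 48 of AP-1 and partner factors 13 fell and 1 rose. Over all gene-assigned regions 10.0% rose and 9.31% fell. Of the 17 immediate early genes, 11 had a fall and 7 a rise. FOS had 1 rise and 0 falls in 7 regions, KLF10 2 and 0 in 8 and IER3 1 and 0 in 4, while IER5, CCN1 and MCL1 had neither. JUN had 3 falls and 1 rise in 6 regions. An intronic region of JUN, an AP-1 subunit, had areas of 998 and 1059 at EGF 1 h and 331 and 327 at EGF 24 h, with 602 and 505 at vehicle 1 h and 794 and 820 at vehicle 24 h. Its log2 change was -1.77 ± 0.11 (limma adjusted p = 0.00239), and the difference from vehicle was -2.22 ± 0.15 (adjusted p = 0.0181). At the EGR1 promoter, 12281 and 12624 became 6787 and 7139 with EGF, whereas vehicle went from 11188 and 10752 to 15075 and 14984. EGF at 24 h thus lay below all 4 vehicle libraries of 1 h and 24 h.

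Smaller falls were called at EGR2 (2522 and 2370 to 1789 and 1746), 8.07 kb from EGR3 (581 and 603 to 287 and 366), the NR4A1 promoter (451 and 560 to 263 and 276) and in an intron of ATF3, a stress-induced AP-1 partner (1542 and 1401 to 824 and 797). FOSB (log2 -0.37) and FOSL1 (-0.28), both AP-1 subunit genes, fell less, and with −log10 p in place of area the FOSB change was 0.00845, with the opposite sign and no call. BACH1 (-0.87), MAFK (-0.77) and a region 68.3 kb from BACH2 (-0.93), partners from related families, fell too. A region 40.2 kb from KLF6 fell with EGF (760 and 762 to 295 and 329) and with vehicle (411 and 421 to 244 and 207), and the difference was not called (limma adjusted p = 0.0866). A region 3.57 kb from CCN2, a YAP and TEAD target gene, went from 1365 and 1311 to 634 and 605, while vehicle went from 798 and 605 to 929 and 931.

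Feedback regulators had 12 rises and 13 falls in 81 regions. A region in SPRY4-AS1, 62.2 kb from SPRY4, an inhibitor of receptor signalling, rose from 699 and 514 to 1934 and 1768 (log2 1.63 ± 0.19, limma adjusted p = 0.00517), and one 35.8 kb from SPRED1, of a related family, from 437 and 451 to 891 and 924. The promoter region assigned to DUSP14, which lies in an intron of TADA2A, fell from 1026 and 847 to 434 and 403.

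Luminal lineage genes had 35 rises and 7 falls in 130 regions (median 0.11), and vehicle had 1 and 0. An intronic region of EHF, an epithelial ETS factor, rose from 403 and 420 to 935 and 919, whereas vehicle had 516 and 476 at 1 h and 282 and 349 at 24 h. The difference was 1.86 ± 0.20 on the log2 scale (limma adjusted p = 0.0247). A region 6.89 kb from XBP1 rose from 635 and 679 to 1551 and 1322, and one 34.3 kb from TBX3 from 748 and 774 to 1777 and 1488, but vehicle levels were already above EGF at 1 h (1157 and 1265, and 1464 and 1336), and neither difference was called. A region 19.6 kb from SPDEF, a luminal ETS factor, rose from 3166 and 2885 to 4949 and 5142 and one 56.7 kb from ESR1, the estrogen receptor gene, from 401 and 321 to 803 and 646. In a region 40.5 kb from GRHL2 the estimates were close, 1.10 ± 0.29 with EGF and 1.09 ± 0.29 with vehicle.

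Glycolysis and hypoxia genes had 25 rises and 8 falls in 101 regions (median 0.09), and lipid synthesis genes 21 and 9 in 101 (median 0.01). HK2, a hexokinase that starts glycolysis, had a region 56.1 kb away that rose from 823 and 753 to 1712 and 1808, against 1100 and 1042 to 1648 and 1603 with vehicle. A region 10.7 kb from LDHA, the lactate dehydrogenase gene, rose from 2260 and 2151 to 3126 and 3323, while vehicle stood at 2418 and 2463 and then 2373 and 2335. One 3.04 kb from SLC2A1, the GLUT1 glucose transporter gene, rose from 1491 and 1339 to 1959 and 2089, against 1608 and 1567 to 1617 and 1465. The NDRG1 promoter (log2 0.89) also rose, as did regions 4.81 kb from SREBF1 (0.73), a regulator of lipid synthesis, 93.03 kb from INSIG1 (0.89), which restrains it, and 72.7 kb from ACSL1 (1.09).

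ERBB receptors and adaptors had 1 rise and 5 falls in 41 regions. The rise was in EGFR (1157 and 1103 to 1669 and 2048), and an intronic region of ERBB2, the HER2 gene, fell from 3639 and 3807 to 2388 and 1742. Vehicle at ERBB2 went from 3009 and 2866 to 2263 and 2278, and the difference was not called (limma adjusted p = 0.314). ERBB2 and GRB7 (7806 and 8306 to 3382 and 4647) lie side by side in a locus that is amplified in HER2-positive lines. The ERBB4 promoter fell from 580 and 525 to 345 and 329, against 619 and 490 to 773 and 704 with vehicle.

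Epithelial plasticity genes had 7 rises and 13 falls in 77 regions, including the TGFB2 (1172 and 1131 to 620 and 695) and CD44 (865 and 736 to 466 and 469) starts, and cell cycle genes had 0 rises and 5 falls in 30, among them CCND3 and CCNE1. Delayed EGF response genes had 11 and 9 in 67, hormone response genes 10 and 5 in 64, interferon and NF-kappaB genes 6 and 2 in 45, epithelial markers 9 and 9 in 49, and markers of other cell types 4 and 2 in 16.

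The 10 largest rises included 3 regions 49.8 to 79.5 kb from TMEM63B, in and beside the noncoding gene SCIRT. The strongest went from 204 and 256 to 1597 and 1848 (log2 2.88 ± 0.21, limma adjusted p = 0.00281). Vehicle rose there too, from 281 and 246 to 1344 and 904 (1.96 ± 0.21, adjusted p = 0.0431), and the difference was not called. The 10 largest rises and falls are named by the nearest protein-coding start at any distance. In an intergenic region 202 kb from SYK, a tyrosine kinase gene, areas were 357 and 207 at EGF 1 h and 1349 and 1289 at EGF 24 h, and vehicle stood at 615 and 557 and then 672 and 904. Regions in introns of CA1, ELFN2 and NEURL1 and one 39.3 kb from TH followed the same order, with vehicle at 1 h above EGF at 1 h in both libraries. In an intron of ENSG00000286263, 242 kb from IRF2BP2, EGF went from 326 and 220 to 1011 and 1187 and vehicle from 523 and 529 to 308 and 518. An intronic region of RAD51B had EGF 1 h areas of 689 and 206, a wide spread.

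**Figure D4:**
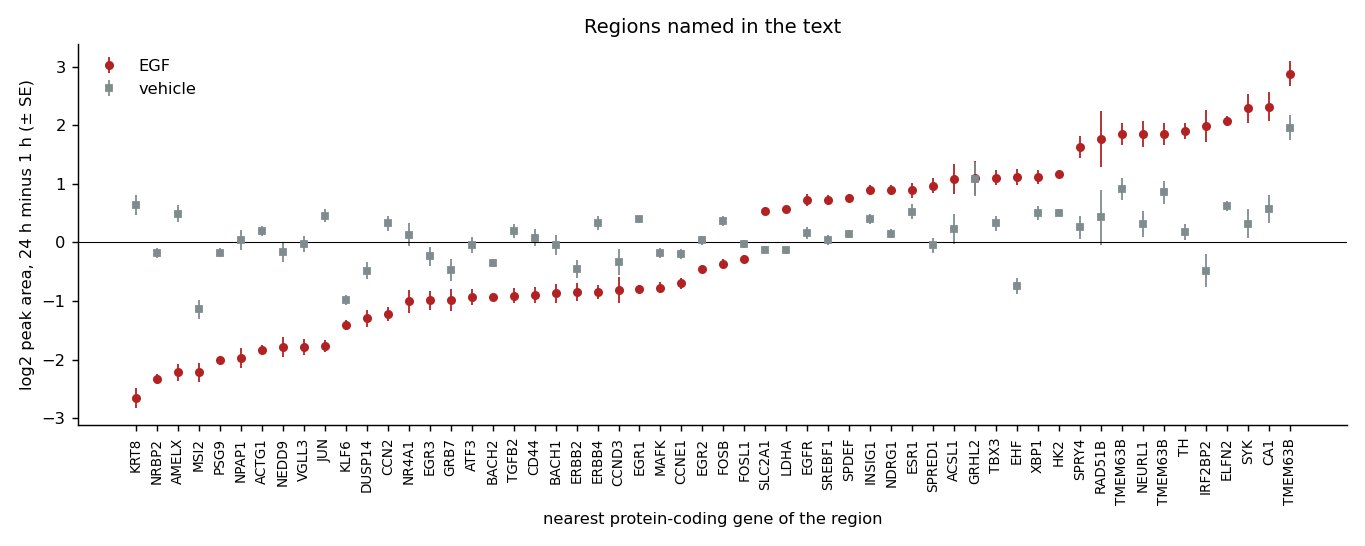
Change in log2 peak area from 1 h to 24 h (vertical axis, quantile-normalised, limma estimate ± SE from 2 libraries per group and time) with EGF (red) and vehicle (grey) for the 56 regions named in the text, labelled by nearest protein-coding gene and ordered by EGF change. JUN stands at -1.77 with EGF and 0.45 with vehicle, and EHF at 1.11 and -0.74.

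**Figure D5:**
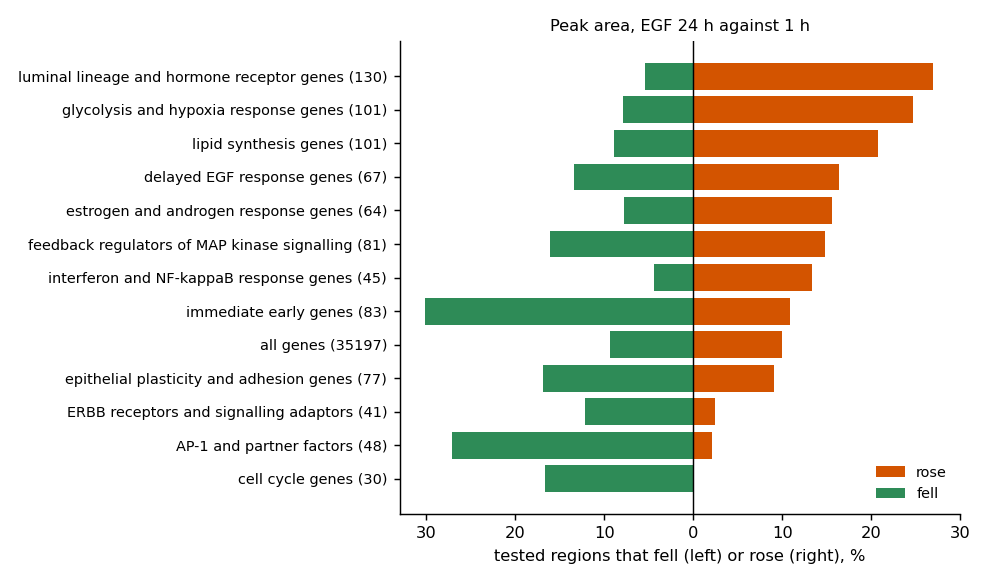
Share of the tested regions of each gene list (number in brackets) whose peak area fell (left, green) or rose (right, orange) from EGF 1 h to EGF 24 h at an adjusted p under 0.05; the horizontal axis is in % and the bars carry no error because genes of a list are not replicates. Immediate early genes had 25 falls of 83 regions and luminal lineage genes 35 rises of 130.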

How the data were processed

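According to the published methods, adapters were removed by the authors with Trim Galore 0.6.6, reads were mapped to GRCh38.p13 with BBMap and peaks were called with Genrich in each library, without mitochondrial reads and blacklisted regions; Genrich's options, including its ATAC mode, were not given in the sources used here and can change peak width and number. The deposited signal of a peak is its area under the curve of significance, lowest value 200. The authors also deposited a score (area over width, capped) and −log10 p and q values at the summit. Areas depend on the depth of their library, which was unknown. Read counts were not analysed here, so the study's count model was not run.

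Presence (2 of 2 against 0 of 2) carries no test. Positions came from GENCODE release 44, genes from the nearest protein-coding start within 100 kb, and 20 motif consensus sequences were searched within 100 bp of summits. Peak area was summed per region over whole peaks in the merge of the 8 EGF and vehicle lists, quantile normalised on the log2 scale and tested with limma 3.58.1 in R 4.3.3 (4 groups, 4 residual and 2.50 prior degrees of freedom, Benjamini-Hochberg at 0.05). Single values were compared by exact permutation, two-sided, adjusted over 5 tests. On simulated data for the EGF 24 h against 1 h areas, 74% of 100 regions changed by 1 on the log2 scale and 97% of 100 changed by 2 were recovered, with 18 of 40208 unchanged regions called.

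The comparison, gene lists and tests were chosen with earlier results of these data known, so no pattern is independent support. Named genes and regions were, per list, up to 4 genes with the most opened and closed regions or with one in a promoter, the strongest opened and closed regions relative to vehicle, the genes with the most such regions, and the 10 largest rises and falls in area; a few items that these rules name are not reported here; other list regions named by area and the printed sequences with motifs were chosen after their values were seen. Alternatives were an equal number of top peaks, a peak area of at least 400, peaks trimmed to 400 bp, half-covered regions, gaps of 100 bp merged, each library left out, a replicate block, other normalisation, a mean-variance trend and regions in at least 6 of 8 libraries. Software was pandas 2.3.3, scipy 1.17.1, numpy 2.4.6, matplotlib 3.10.9 and pysam 0.24.0 under Python 3.11.15.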

Additional observations from a re-analysis of the deposited data

Results flagged for a closer look

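The peak area of 1112 regions rose more from 1 h to 24 h with EGF than with vehicle and that of 718 fell more, by the interaction term of the limma fit at an adjusted p under 0.05. Leaving out any 1 library left 0 upward and 0 to 2 downward calls by limma, with 8305 to 10195 regions at an unadjusted p under 0.05, so the named differences that follow depend on all 8 libraries.

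Named regions differed between the EGF and the vehicle change by that test as follows, on the log2 scale of area. Among the 10 largest falls with EGF, the difference was -3.29 near KRT8, -2.71 in ARHGAP6 (nearest start AMELX), -2.15 near NRBP2, -2.03 near ACTG1, -2.01 at NPAP1, -1.84 at PSG9, -1.75 in a region 196.777 kb from VGLL3 and -1.62 near NEDD9. Among immediate early and AP-1 genes it was -2.22 at JUN, -1.19 at EGR1, -0.74 at FOSB (where the EGF change itself turned sign with −log10 p in place of area), -0.58 near BACH2 and -0.49 at EGR2. It was -1.55 near CCN2, -1.18 at ERBB4, -1.11 at TGFB2 and -0.98 at CD44.

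Among rises, the difference was 2.47 in an intron of ENSG00000286263 (242 kb from IRF2BP2), 1.97 in a region 202 kb from SYK, 1.76 at CA1, 1.72 near TH, 1.54 at NEURL1 and 1.45 at ELFN2. Feedback genes had 1.38 near SPRY4 and 1.02 near SPRED1. Luminal genes had 1.86 at EHF and 0.61 near SPDEF. Metabolic genes had 0.74 at NDRG1, 0.70 near LDHA, 0.68 near SREBF1, 0.66 near HK2 and 0.66 near SLC2A1.

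With vehicle alone, the share of EGF opened regions with a peak rose between 1 h and 24 h in BT474 and fell in BT474R, in every library, a gap of 34.7 percentage points that was not tested. Regions open in 1 of 2 EGF libraries at each time moved the same way with vehicle. Their share went from 37.9% and 37.0% to 51.7% and 44.5% in BT474, and from 38.2% and 34.8% to 16.2% and 22.4% in BT474R. The gap is thus not particular to the opened set. In the EGF 12 h libraries, outside the comparison, the mean share with a peak was 64.9% of opened regions, against 33.6% with vehicle at 12 h, and 40.6% of closed regions, against 28.4%. Regions open in 1 of 2 EGF libraries at each time were also higher with EGF at 12 h. They stood at 46.2% and 60.9%, against 38.1% and 36.4% with vehicle at 12 h, so the closed set excess is not particular to that set.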

How the results depend on the processing

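With the 48788 strongest peaks of each list, EGF opened 1877 and closed 2200 regions and vehicle 1039 and 1000; vehicle opened 1085 at a peak area of at least 400. As covered length in Mb, the EGF excess of peaks per library turned to -0.705 (exact permutation p = 0.333). The opened set in other arms passed with equal numbers (20.4 points) and less the replicate disagreement (17.9), and the closed set in BT474 arms alone, -30.3 points, had the smallest possible exact permutation p of 0.0556. Vehicle area rises and falls were 110 and 259 with median centring (EGF 4183 and 4465), 10 and 55 with −log10 p in place of area, 114 and 259 for regions in at least 6 of 8 libraries and 439 and 872 with a mean-variance trend. Difference calls were 354 and 207 with −log10 p and 2779 and 2192 with the trend. The FOSB area changed sign with −log10 p (0.00845). The cause of these shifts was not tested. Within 62 bp of the summit, 34 of 43 motif shares moved beyond their interval, as a shorter window holds fewer matches, and the closed share stayed above the opened one for AP-1, TEAD and CArG. Motif shares with equal numbers were an alternative chosen after seeing the data.

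Leaving out 1 library each, EGF opened 4297 to 6109 regions and closed 1625 to 2622, and vehicle opened 2848 to 3841 and closed 1144 to 1446, since 1 of 1 is easier to meet than 2 of 2. Area rises with EGF were 1405 to 3925 and falls 912 to 3309, with vehicle 0 to 0, and for the difference 0 to 0 and 0 to 2. A lone library was assumed to vary like the other groups. The tested differences ranged from 702 to 4448 peaks, -1.68 to -0.313 points of promoter share, 0.135 to 0.580 of AP-1 share, 14.02 to 18.1 for the opened and -23.5 to -20.9 for the closed set. No call among these 5 changed.

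Same-numbered libraries did not deviate together (correlations of -0.02 to 0.09). The labels do not say whether they shared a preparation, and these correlations cannot settle it. With the replicate block, EGF area calls were 3947 and 3274, vehicle 0 and 0 and the difference 308 and 165, and no other call changed (opened set exact permutation p = 0.0996, closed set 0.00195). Of 280 values of named areas under other settings, 265 kept direction and call, 14 lost the call and 1 turned; of 448 with 1 library left out, 398 kept both and 50 lost the call.

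Only 2 libraries per group and peaks near the area floor of 200 limit every presence call. Depth was unknown. Nearest-gene assignment held for 26.1% of opened and 35.4% of closed regions within 10 kb, against 77.1% and 79.0% within 100 kb.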
